A study of Mus musculus with 2 samples.

Results

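KLF and ID genes encode regulators of transcription, and 9 of them, Klf2, Klf3, Klf4, Klf6, Klf10, Klf13, Id1, Id2 and Id3, were followed among the 23235 genes of the deposited table. They were picked by name, and the list was chosen by looking at their RNA levels in both libraries, so their levels and differences are given as a description, with no test. The study describes 2 mouse acute promyelocytic leukaemias, APL#1 and APL#2, as clones that differ in how often their cells can start the disease anew, and do not say which of them has more such cells. Both carry the PML-RAR fusion on a C57BL/6-Ly5.2 background. The labels call the source mCG-PML-RAR transgenic mice and the genotype PML-RAR KI, and do not explain the letters mCG. Cells of each leukaemia, 2000000 for APL#1 and 200000 for APL#2, were injected into CD45.1+ recipients that had not been irradiated. CD45.2+ cells were recovered from spleen on magnetic columns. Both samples are labelled untreated (their titles also carry VEH, which is not explained) and 10 weeks of age, and each leukaemia is represented by 1 library. Leukaemia, recipient, cell dose and library therefore cannot be told apart, and no difference below has a replicate check.

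Krueppel-like factors (KLF) bind CACCC and GC-rich boxes in promoters through C-terminal zinc fingers, and differ in their N-terminal parts, which recruit activators or repressors. ID proteins have a helix-loop-helix but no DNA-binding region: they pair with E proteins, such as the one encoded by Tcf3, and keep them off DNA. In blood cells, Klf2 is known for quiescence of lymphocytes and restraint of myeloid activation, Klf4 for monocyte development, and Id1 and Id2 for myeloid growth and lineage choice.

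Levels are in FPKM, fragments scaled to transcript length and library total, so that genes can be compared with each other. From genes with very few fragments, FPKM 1 on a transcript of 2 kb was estimated to stand for about 105 fragments of APL#1 and about 113 of APL#2. Intervals below are 95% intervals of counting error (Poisson for levels, Clopper-Pearson for ratios) from these estimates. They hold neither the spread between animals nor PCR duplication.

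All 9 genes had signal above 0 in both libraries, but over a wide range. Klf2 and Klf6 made up 79.0% of the summed FPKM of the 6 KLF members in APL#1 and 88.4% in APL#2. In APL#1 the order from high to low was Klf2, Klf6, Klf13, Id1, Id2, Klf4, Klf10, Klf3 and Id3. There the counting intervals of Klf2 and Klf6 overlapped, and so did those of each neighbouring pair from Klf13 to Klf4. In APL#2 the order was Klf2, Klf6, Id1, Klf13, Klf4, Id2, Klf3, Klf10 and Id3. There, Klf13 and Klf4, Id2 and Klf3, and Klf3 and Klf10 were the neighbours whose intervals overlapped. Only Klf2, Klf6, Klf13 and Id1 reached a mean FPKM of 1 over both libraries, the level at which a gene is called measured below.

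**Figure D1:**
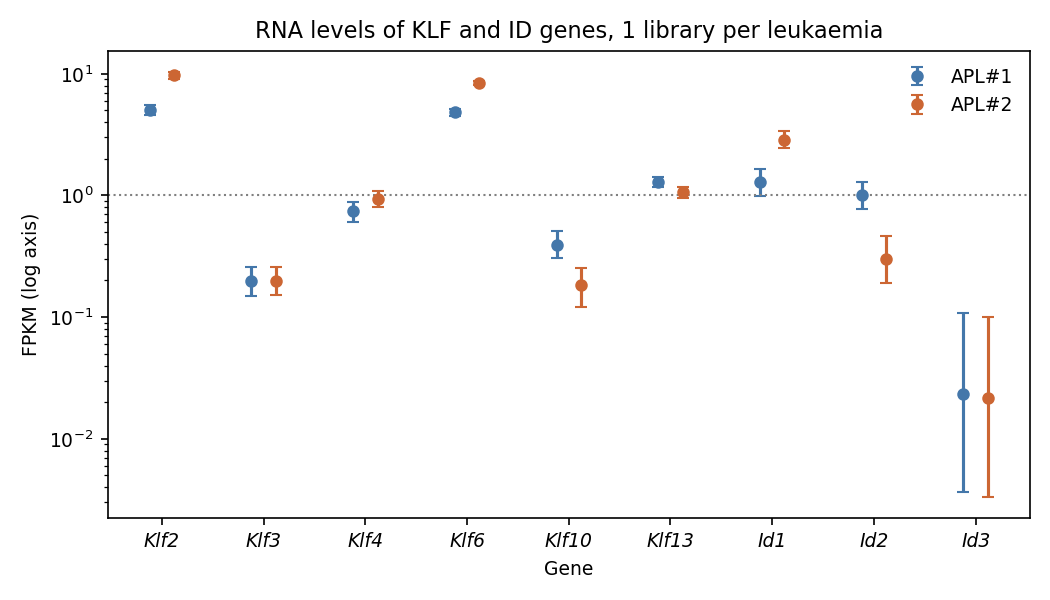
FPKM of the 9 genes (log axis) in APL#1 (blue) and APL#2 (orange), 1 library each; bars are 95% Poisson intervals of counting error, and the dotted line marks FPKM 1. Klf2, Klf6 and Id1 are higher in APL#2, Klf10 and Id2 lower, and Id3 is near the level of single fragments in both.

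Klf2, a KLF held high in resting lymphocytes and endothelium, was the highest of the 9 in either leukaemia. APL#1 had 5.07 FPKM (4.63 to 5.54), against 9.73 (9.14 to 10.4) for APL#2. The levels rest on about 490 and 1018 fragments, and their intervals are apart. The ratio of APL#2 to APL#1 was 1.92 (1.72 to 2.14). In the deposited coordinates (mm9) the gene lies at chr8:74842960-74845553.

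Klf6, a broadly expressed KLF also induced in activated macrophages, followed closely. Its FPKM was 4.81 (4.52 to 5.10) for APL#1 against 8.38 (8.01 to 8.75) for APL#2, from about 1063 and 2004 fragments. APL#2 was thus again the higher library, by a ratio of 1.74 (1.62 to 1.88). The mm9 locus is chr13:5860734-5869639. Among all 23235 genes, Klf2 ranked 806th in APL#1 and 375th in APL#2, and Klf6 858th and 427th.

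Id1 had the largest ratio toward APL#2. Its FPKM was 1.29 (0.990 to 1.65) for APL#1 against 2.88 (2.44 to 3.37) for APL#2, from about 63 and 152 fragments, and lies at mm9 chr2:152562009-152563146. The ratio was 2.24 (1.65 to 3.04), and the 2 intervals did not overlap. Id2, which restrains E proteins in lymphoid and myeloid precursors, went the other way. APL#1 had 1.02 FPKM (0.781 to 1.28), against 0.303 (0.192 to 0.463) for APL#2, from about 67 and 22 fragments (mm9 chr12:25778663-25780957). APL#1 was the higher library by a ratio of 3.35, and the ratio of APL#2 to APL#1 was 0.298 (0.179 to 0.498). Within the ID family, Id1 and Id2 were near each other in APL#1 and far apart in APL#2. Id3 was at 0.0233 and 0.0216 FPKM (mm9 chr4:135699736-135701307), about 2 fragments in each library. No difference in Id3 was detectable at this depth, since the ratio could lie anywhere between 0.0670 and 12.8.

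The promoters of the KLF with the highest level, of the next highest, and of the ID gene with the largest ratio are shown, because these are the members on which the contrast turns. Each is the stretch of 250 bases before the RefSeq start of the gene on GRCm38.p6, a build other than that of the deposited table. Klf2 is read from chr8:72318812-72319061 (plus strand), Klf6 from chr13:5861239-5861488 (plus) and Id2 from chr12:25096093-25096342 (minus). Capitals mark the core TAAATTTA in Klf2 and CCAAT boxes on either strand (CCAAT or ATTGG) in Klf6 and Id2.
Klf2: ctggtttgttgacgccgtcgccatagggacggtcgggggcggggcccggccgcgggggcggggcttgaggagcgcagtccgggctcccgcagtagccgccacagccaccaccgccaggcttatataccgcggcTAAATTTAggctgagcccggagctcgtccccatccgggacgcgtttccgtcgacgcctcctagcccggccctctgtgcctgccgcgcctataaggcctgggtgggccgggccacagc
Klf6: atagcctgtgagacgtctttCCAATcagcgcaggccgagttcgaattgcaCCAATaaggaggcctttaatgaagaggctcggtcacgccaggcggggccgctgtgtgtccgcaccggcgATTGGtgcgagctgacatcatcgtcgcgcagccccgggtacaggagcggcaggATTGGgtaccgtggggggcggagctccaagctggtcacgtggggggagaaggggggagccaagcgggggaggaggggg
Id2: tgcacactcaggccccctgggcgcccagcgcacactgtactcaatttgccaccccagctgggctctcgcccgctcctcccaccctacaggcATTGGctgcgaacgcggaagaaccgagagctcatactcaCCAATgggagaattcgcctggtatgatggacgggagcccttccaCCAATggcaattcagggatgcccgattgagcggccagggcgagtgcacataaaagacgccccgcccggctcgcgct

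In the RefSeq table, 7 of the 9 members had a promoter, and Klf10 and Id1 had none. The Klf2 stretch holds 1 TAAATTTA, an AT-rich core of the kind that MEF2 factors bind, which begins 117 bases before the start. Of all 32851 promoters of the same length, 0.502% hold these letters on either strand (they read the same on both), and none of the other 6 members does. CCAAT, searched on both strands, is found 4 times in Klf6, 3 times in Id2, 2 times in Klf13 and not in the other 4, against 33.8% of all promoters with at least 1. The GC box GGGCGG, a site type of the KLF and Sp factors, is present on either strand in all 7, most often in Klf3 (6 times) and once each in Klf6 and Id2, against 32.7% of all promoters. CACCC, searched likewise, is in 5 of the 7, all but Klf4 and Klf6, against 52.0% (its run of C, or of G on the other strand, can overlap a GC box). The E box CAGCTG, of the type E proteins bind, is in Id2 and Klf4, once each, against 13.0% of all promoters. TATAA, on either strand, is in Klf2, Klf4 and Id3, against 22.8%. The GC content of the 7 ran from 62.8% to 78.4%, above the median of 52.4% over all promoters, which bears on how often GC-rich letters occur.

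The other 4 KLF genes differed less in FPKM, though by ratio Klf10 (2.16, APL#1 over APL#2) differed more than Klf2 or Klf6. Klf4, which directs monocyte development and is one of the reprogramming factors, was at 0.739 FPKM (0.610 to 0.884) for APL#1 against 0.939 (0.799 to 1.10) for APL#2, at mm9 chr4:55540008-55545347. These intervals overlap, and that of the ratio, 1.27 (0.997 to 1.63), includes 1. Klf10, a repressor gene induced by TGF-beta, was at 0.394 FPKM (0.304 to 0.506) and 0.182 (0.122 to 0.255), at mm9 chr15:38224167-38230462. The ratio of 0.462 (0.286 to 0.710) places APL#1 above APL#2, on about 63 and 31 fragments. Klf13, a regulator of lymphocyte cytokine and survival genes, was at 1.29 FPKM (1.17 to 1.42) and 1.06 (0.959 to 1.17), at mm9 chr7:71031236-71083801. Its ratio was 0.823 (0.716 to 0.948). Relative to the median of all measured genes this small difference turns to 0.02 toward APL#2 (log2), so Klf13 has no fixed direction. The locus overlaps that of E030018B13Rik, and no source used here states whether strand was used in counting, so reads of the pair may be mixed. Klf3, which represses through CtBP, stood at 0.199 FPKM in both libraries (0.148 to 0.258 and 0.152 to 0.257), at mm9 chr5:65194761-65221368, and its ratio was 1.00 (0.686 to 1.49).

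To set these values beside all genes, differences were taken as the log2 of FPKM + 1 for APL#2 over FPKM + 1 for APL#1, which understates those of low genes. The median over the 4100 measured genes was -0.17, with quartiles of -0.37 and 0.04. On this scale Klf2 differed by 0.82, Id1 by 0.76, Klf6 by 0.69, Klf4 by 0.16, Klf3 by 0.00, Id3 by 0.00, Klf13 by -0.15, Klf10 by -0.24 and Id2 by -0.63. The median over the 9 was 0.00, beside -0.03 over the 14062 genes above 0 in at least 1 library. Of the 4 measured members, 3 (Klf2, Klf6 and Id1) were at least 1.5-fold higher in APL#2 and 0 at least 1.5-fold lower. Over all measured genes 5.49% were at least 1.5-fold higher and 10.1% at least 1.5-fold lower. On this scale 0 members were at least 2-fold higher or lower, against 2.1% and 2.44% of measured genes. By FPKM without the added 1, Id1 was 2.24-fold higher in APL#2. Id2 and Klf10, both below the limit on level, were 3.35-fold and 2.16-fold lower. With the added 1 but without the limit on level, Id2 was the 1 member of 9 at least 1.5-fold lower, and 3 were higher. The shares over genes above 0 in at least 1 library were 3.46% lower and 1.97% higher. Since the members were chosen with these values known, nothing is read from these shares. Relative to the all-gene median, Klf2 stood at 0.99, Id1 at 0.94, Klf6 at 0.86 and Id2 at -0.46. On that footing the 1.5-fold calls over measured genes split into 360 higher and 219 lower, in place of 225 and 416.

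**Figure D2:**
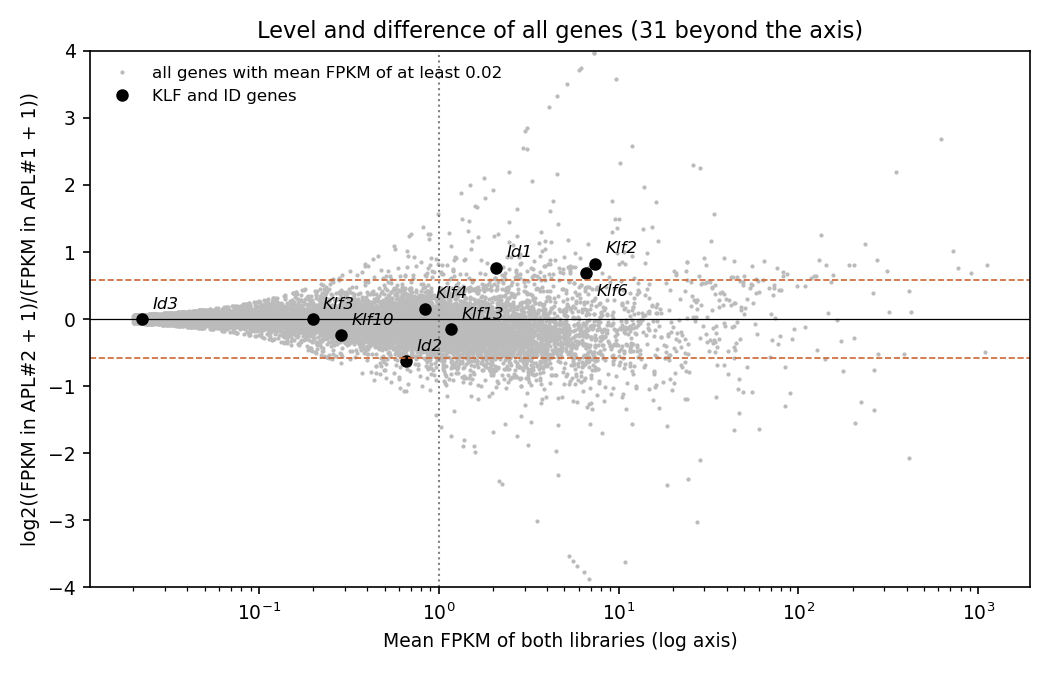
Mean FPKM of both libraries (log axis) against the log2 ratio, APL#2 over APL#1, of FPKM + 1, for 11862 genes (grey; 31 lie beyond the vertical axis) and the 9 KLF and ID genes (black). Orange lines mark 1.5-fold and the dotted line FPKM 1; Klf2, Klf6 and Id1 lie above the upper line, Id2 just below the lower one, and the other 5 between them.

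The authors' deposited table holds a test of these 2 libraries for every gene. In the authors' deposited table, p was 0.147 for Id2, 0.162 for Klf6, 0.190 for Klf2 and 0.296 for Id1, and from 0.348 (Klf10) to 0.998 (Klf3) for the other 5. The authors' deposited q was 1.00 after rounding for all 9. The standard error that the authors' deposited statistic implies, as the log2 ratio of FPKM divided by it, was 0.57 for Klf6, 0.72 for Klf2, 1.11 for Id1 and 1.20 for Id2. The corresponding log2 ratios were 0.80, 0.94, 1.16 and -1.75. By this measure each of the 4 differences lay within 1.5 standard errors of 0, whereas counting error alone left their intervals apart.

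The measured genes of chromosome 19 had a median difference of 0.44, against -0.17 over all chromosomes, so each gene was set beside its neighbours, the measured genes within 5 Mb on either side (mm9). Klf2 lay above 49 of 50 neighbours, whose median difference was -0.28. Id1 lay above all 31 of its neighbours (median -0.21), and Klf6 above all 6 (median -0.24). Id2 stood below all but 2 of its 9 neighbours, whose median was -0.34. Klf2, Klf6 and Id1 thus stood above the interquartile range of the genes around them, and Id2 at its lower edge (-0.61). Klf4 (0.16) also stood above the range of its own neighbours, and above all 8 of them. Id3 (-0.002, about 2 fragments in each library) lay above 48 of 59. At so low a level the added 1 holds its difference near 0, so nothing is read from its place. The neighbourhood medians of all 9 lay between -0.34 and -0.08.

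**Figure D3:**
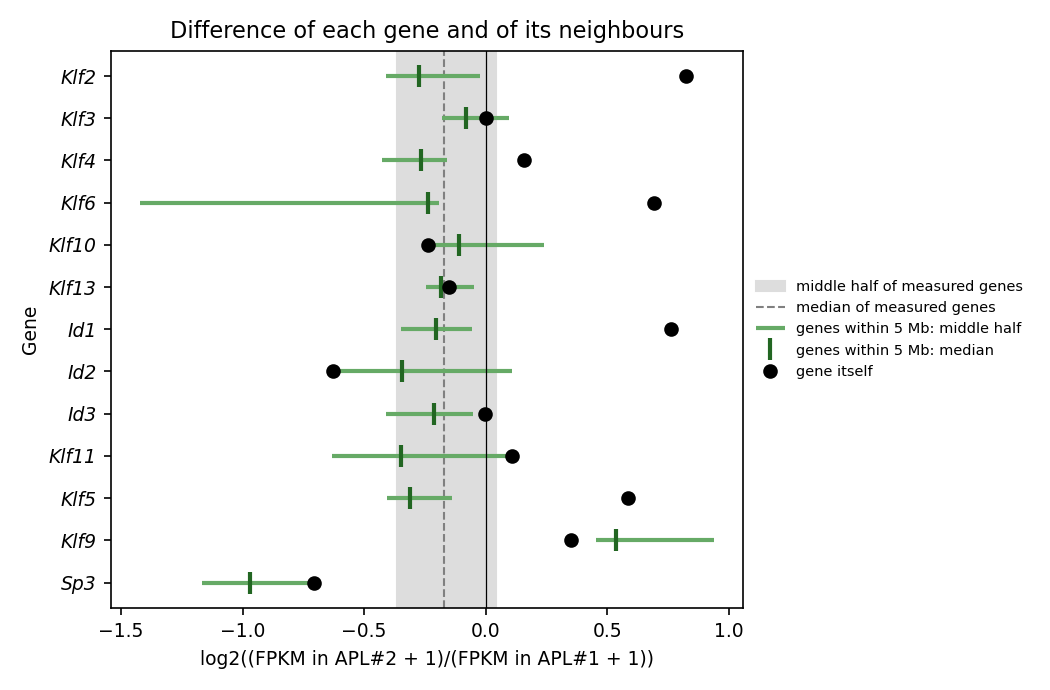
Difference of each of the 9 members and of 4 related genes (black points), with the median (green tick) and interquartile range (green bar) of measured genes within 5 Mb, on the log2 scale of FPKM + 1, APL#2 over APL#1. Grey marks the interquartile range of all measured genes around their median of -0.17. Klf2, Klf4, Klf6, Id1, Id3, Klf5 and Klf11 stand to the right of the green bars of their neighbours. Id3 rests on about 2 fragments in each library, and the added 1 holds it near 0, so nothing is read from its place. Sp3 is below 0 and Klf9 above 0, as are the medians of their neighbours.

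Of the 11 other KLF genes, 3 were measured. All 3 had higher FPKM in APL#2, whereas 71.6% of all measured genes were lower there. Below the level of measured genes, Klf16 (0.793 and 0.495 FPKM), Klf8, Klf1 and Klf17 were lower in APL#2, and Klf7 (0.603 and 0.858 FPKM) was higher. On the log2 scale with the added 1, 0 of the 3 measured genes reached 1.5-fold. Klf5, a KLF of proliferating epithelia and of myeloid progenitors, came closest, at 1.03 FPKM for APL#1 against 2.05 for APL#2, a difference of 0.58 on that scale. Klf9 stood at 0.835 and 1.34 FPKM, and so reached the level of measured genes only through APL#2. It lies on chromosome 19, where its 7 neighbours had a median of 0.54, more than its own 0.35. Klf11, the close relative of Klf10, stood at 1.46 and 1.65 FPKM. Relative to the all-gene median, Klf5 was at least 1.5-fold higher as well. Klf12, Klf14 and Klf15 were listed at 0 in both libraries, and Klf1, the erythroid KLF, was at 0.0263 and 0.0243 FPKM. Of 9 Sp genes, which share the zinc fingers of the KLF, only Sp3 was measured. It was lower in APL#2 (1.78 and 0.707 FPKM), on chromosome 2, where its 9 neighbours had a median of -0.97 against its own -0.71. Id4 was listed at 0 in both, so Id1 and Id2 carried nearly all ID signal.

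The measured E protein genes, which encode partners of the ID proteins, and the other measured bHLH gene had lower FPKM in APL#2, as did 71.6% of all measured genes. Of 11 E protein and bHLH genes in the table, 3 were measured. On the log2 scale with the added 1, 0 of the 3 passed 1.5-fold in either direction. With 0.1 added in place of 1, 1 was at least 1.5-fold lower. Their median difference, with 1 added, was -0.35, within the interquartile range of all measured genes. Tcf3, which encodes the E proteins E12 and E47, was at 3.07 FPKM for APL#1 against 1.77 for APL#2. Tcf12, the E protein HEB, was at 2.37 and 1.65 FPKM, and Lyl1, a bHLH gene that is not an E protein, at 5.69 and 4.72. Tal1 and Hey1 were listed at 0 in both libraries. BMP signals are known inducers of Id genes, and TGF-beta signals of Klf10. Of 35 genes of these pathways 2 were measured, and Bmp2, Bmp4, Bmp6 and Bmp7 were listed at 0 in both. Tgif1, a corepressor of SMAD proteins, was higher in APL#2 (1.81 and 3.57 FPKM), and the ligand gene Tgfb1 was at 8.67 and 5.91 FPKM.

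Most measured regulators and cofactors of the KLF differed by less than 1.5-fold. The folds and medians of this paragraph are on the log2 scale with the added 1, on which low genes pass less readily than by plain FPKM. A list of 12 genes joined the MEK5, ERK5 and MEF2 path, which induces Klf2 in endothelium, and class IIa histone deacetylases, which repress MEF2. Of these 12 genes, 5 were measured, with a median of -0.07 (the value of Hdac7, such a deacetylase), and 0 passed 1.5-fold. Hdac5, a repressor of MEF2, was at 3.21 and 2.08 FPKM, and the kinase gene Map2k5 (MEK5) at 2.39 and 1.99. Of 12 KLF cofactors 10 were measured, with a median of -0.26, 0 at least 1.5-fold higher and 1 lower. The latter was Sin3b, a scaffold of histone deacetylase complexes (4.0 and 2.27 FPKM), followed by its partner Sap30 (3.20 and 1.90). Among 5 genes of KLF and ID protein turnover, 2 were measured. Fzr1, an activator of the ubiquitin ligase that degrades Id2, was at 2.89 and 1.36 FPKM, past 1.5-fold, and Usp1, which stabilises ID proteins, at 1.91 and 1.06. These are RNA levels, and protein activity was not measured. Relative to the all-gene median, Sin3b, Fzr1 and Sp3 no longer passed 1.5-fold. Of 11 genes known as KLF targets in other cells, 3 were measured and 0 passed 1.5-fold; relative to the all-gene median 1 did, Lgals3. This gene, for galectin-3, was at 1.56 and 2.74 FPKM, and Cdkn1a, the cell cycle inhibitor p21, at 1.41 and 2.07. S1pr1, the best known Klf2 target of lymphocytes, was below the level of measured genes, at 0.00619 FPKM for APL#1 and 0 for APL#2.

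Klf2, Klf4, Klf6, Klf10 and the ID genes are also known as early response genes, switched on within minutes by growth factors, stress or handling of cells. Most other early response genes had lower FPKM in APL#2, as did 71.6% of all measured genes, and as did Klf10 and Id2. Klf2, Klf6 and Id1 had higher FPKM there, and so did Klf4, whose ratio interval includes 1. Whether handling of the cells had a part in any of these differences was not tested. Of 20 such genes 13 were measured, with a median difference of -0.58. Of these, 10 were below 0, beside the 71.6% of all measured genes, and 3 above (Fosb, Ier5 and Myc, named after their values were seen). At least 1.5-fold lower in APL#2 were 6 and higher 0, against the background shares of 10.1% and 5.49%. The zinc finger gene Egr1 was at 49.4 FPKM for APL#1 against 5.19 for APL#2. The AP-1 genes Fos (67.5 and 31.1 FPKM) and Junb (12.8 and 5.76) were lower in APL#2 too. The other 3 were the MAP kinase phosphatase gene Dusp2 (4.01 and 0.686 FPKM), Ier2 (28.2 and 16.8) and the mRNA decay factor gene Zfp36 (28.8 and 18.1). Dusp2 lies on chromosome 2 among 25 neighbours with a median of -0.81. Relative to the all-gene median, 4 of the 13 were at least 1.5-fold lower.

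**Figure D4:**
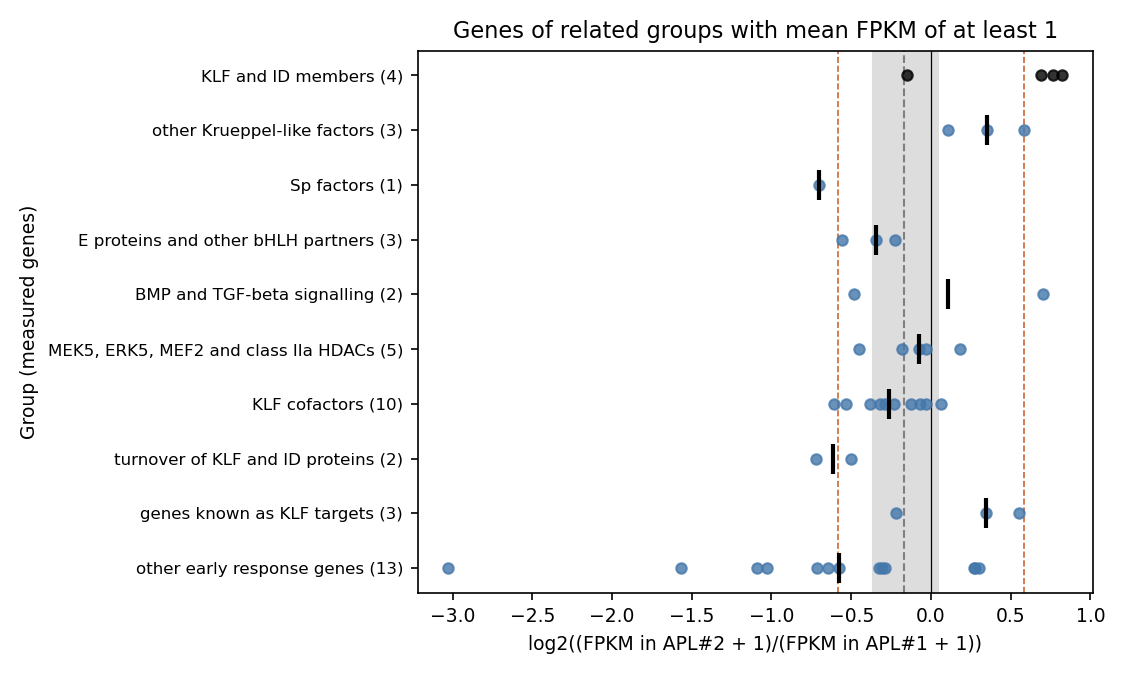
Differences of the measured genes in each related group (points; number of genes in brackets) on the log2 scale of FPKM + 1, APL#2 over APL#1, with the median of each related group as a black tick. Orange lines mark 1.5-fold and grey the interquartile range of all measured genes; 3 of the 4 measured KLF and ID members lie right of the upper line, and 6 of the 13 other early response genes left of the lower one.

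Klf2, Klf4 and the ID genes are also expressed by other cells of the spleen, so marker genes were read in the same libraries. All 8 promyelocyte markers were measured (Mpo, Elane, Prtn3, Ctsg, Ptprc, Kit, Cd34 and Cebpe). Of these 7 were lower in APL#2, and their sum was 727.3 FPKM in APL#1 against 190.9. The primary granule genes Mpo (661.8 and 157.3 FPKM) and Elane (32.4 and 5.01) made up most of that gap. Cd34 was at 7.52 and 4.40 FPKM, Ptprc, which encodes CD45, at 4.66 and 4.10, and Ctsg, the one higher in APL#2, at 7.89 and 8.99. Of the endothelial markers 5 of 8 were listed at 0 in both (Emcn, Kdr, Stab2, Tek and Vwf) and 1, Pecam1, which leukocytes also express, was measured (3.62 and 1.62 FPKM). B cell markers summed to 0.250 FPKM over 7 genes in APL#1 and 0.518 in APL#2, and all 7 were higher in APL#2. T cell markers summed to 0.0846 and 0.313 over 8 genes, again all higher in APL#2, with Cd3e, Cd3g, Cd4 and Lck at 0 in APL#1. In both libraries 6 of the 7 B cell and all 8 T cell markers were under 0.1 FPKM, and so rest on few fragments. The share of all genes at so low a level that were higher in APL#2 was not taken, so nothing is read from these counts. Of 10 monocyte and macrophage markers, Ly6c2 (224.2 and 130.5 FPKM) and Vcam1 (3.94 and 7.47) were measured; the other 8 summed to 0.502 and 1.03, of which Emr1, a macrophage surface receptor gene, gave 0.0230 and 0.537. NK cell markers summed to 0.0382 and 0.0116 FPKM, erythroid ones to 0.0496 and 0.0280, and dendritic cell ones to 0.360 and 0.526. In the platelet list Itga2b alone was measured (2.34 and 3.95 FPKM), and Gp9, Pf4 and Ppbp were at 0 in both. The stromal list had Pdgfrb at 1.30 and 1.11 FPKM, and Col1a2, Col3a1, Dcn, Lum and Pdgfra at 0. Among basophil and mast cell markers Mcpt8 was at 1.02 and 8.04 FPKM, Cpa3 at 41.3 and 7.09 and Gata2 at 3.0 and 1.83. The 5 measured neutrophil markers were S100a8 (309.0 and 105.3 FPKM), S100a9 (378.8 and 148.1), Camp (97.5 and 152.5), Ngp (31.7 and 41.7) and Ltf (2.29 and 0.860). The part of other cells, or of the lower promyelocyte markers, in the Klf2, Klf6 and Id1 differences was not tested, and in bulk RNA fewer cells of a type and less RNA per cell cannot be told apart.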

How the data were processed

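RNA from 2 libraries, 1 for each leukaemia, was read from 1 gene table. Per the submitters' processing notes, TopHat2 2.0.10, Cufflinks, Cuffdiff and mm9 were used; no source used here states the annotation, strand or filters. The values deposited by the authors were taken as FPKM from the layout of the table. The deposited test statistic was used as the authors' score per gene; its sign is opposite to the log2 ratio in all 12188 genes that have both. The p-value and q-value are the authors', as deposited. Members and lists were chosen with earlier results of these data known. Differences use a pseudocount of 1. Genes with mean FPKM of at least 1 are called measured. The depth was estimated from 305 low genes at the commonest ratio between the libraries (1.08, within 0.1%) and from 16 genes with 1 transcript, where 1 fragment on 1 kb was worth 0.0191 FPKM in APL#1 and 0.0177 in APL#2; the method was tested on simulated data. Member lengths are those of the longest RefSeq-matched GENCODE transcript, so fragment numbers are approximate. Promoters are from RefSeq (GRCm38.p6). Named genes were the members, every measured KLF, Sp or ID gene, list genes past 1.5-fold (or the 2 that differed most), and measured markers. Other genes were named after their values were seen, such as those listed at 0, Klf1, Klf7, Klf8, Klf16, Klf17, S1pr1, Emr1, Fosb, Ier5 and Myc. No gene was named for a pattern like that of a member, since 2 libraries give 1 ratio. Python 3.11.15, pandas 2.3.3 and scipy 1.17.1 were used. Alternatives were other pseudocounts, scalings and limits on level.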

Additional observations from a re-analysis of the deposited data

How the results depend on the processing

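Klf2, Klf6 and Id1 were at least 1.5-fold higher in APL#2 under every pseudocount and scaling tried; with a mean of at least 5 required, Id1 was not counted and the number was 2. Of 54 comparisons for single members, 23 moved by less than counting error, 31 by more, and 0 of the differences past 1.5-fold changed sign. Klf13 and Id3, near 0, did (from -0.28 to 0.04 and from -0.11 to 0.19). The number of members at least 2-fold higher was 0 as reported, and 1 with a pseudocount of 0.1, with no pseudocount (an alternative chosen after seeing the data), with upper quartile scaling and relative to genes outside chromosomes 2, 6 and 19. That member was Id1 without or with the small pseudocount (log2 1.16 and 1.10) and Klf2 with the scalings (1.01 and 1.01). With no limit on level, 1 member was at least 1.5-fold lower, in place of 0. The median over the members was 0.17 relative to all measured genes, 0.19 relative to those outside chromosomes 2, 6 and 19, and 0.76 over the members with a mean of at least 5, which were Klf2 and Klf6. Over all measured genes, 225 were at least 1.5-fold higher and 416 lower; the numbers were 329 and 825 with a pseudocount of 0.1, 344 and 235 with upper quartile scaling, and 375 and 209 relative to genes outside chromosomes 2, 6 and 19. For the related lists, 12 of 60 counts changed to or from 0, or by over 1.5 times. Id2 ranged from -1.75 to -0.44 and Klf10 from -1.11 to -0.05. No paired analysis was possible because each leukaemia has 1 library, and for the same reason no replicate could be left out. Depth limits Id3 first, then Id2 and Klf10.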
